A study of Homo sapiens with 27 samples.

Results

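The genes described here are those whose difference between the MMP2sh1 line and the control changed sign as U2OS cells grew denser. U2OS is a human osteosarcoma cell line. All lines were grown in the same medium, seeded at 30% confluence and harvested subconfluent (day −2), confluent (day 0) or overconfluent (day +2). The control libraries are labelled U2OS WT, and the study describes its RNA-Seq control as pLKO.1 control cells. The labels name no vector, so whether the control shares the transduction and drug selection of the other lines cannot be told from them. The MMP2sh1 (23) and MMP2sh2 (26) lines carried a lentiviral short hairpin RNA against MMP2, the gene of the secreted and nuclear protease MMP-2. The shRNA lines are stably transduced and drug-selected, so an effect shared by every library of 1 line can come from the line as well as from the depletion. Poly(A) RNA was sequenced from 3 libraries of each line at each stage, 27 in all, and the study's methods describe independent biological replicates.

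Members were chosen by measured values: the mean CPM (a gene's count scaled to a common total of all gene counts in each library) had to reach 1 in the control at both day −2 and day +2, and the log2 ratio of MMP2sh1 to control had to be at least 0.4 in size with opposite sign at these stages. Of 55882 gene symbols, 14287 reached the level, 6093 of these had ratios of opposite sign of any size, and 85 met the whole rule. In 41 of the 85, MMP2sh1 was lower than control when subconfluent and higher when overconfluent (the lower-then-higher genes). In the other 44 it was higher and then lower (the higher-then-lower genes). Because the rule used the MMP2sh1 and control libraries of day −2 and day +2, values from them are given as a description without a test. The 9 confluent libraries and the MMP2sh2 line were not used by the rule, and the tests below rest on them.

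Growing cells to confluence is known to slow division, change contacts with neighbours and deplete the medium, and many genes respond to 1 or more of these. A knockdown can shift the level of such a gene at every density, or it can alter how steeply the gene responds to density. A change of sign between stages has the form of the second kind. Whether the knockdown altered the density response of any gene here was not tested. The form was not separated from spread among libraries or from differences between the lines. Among the genes met here are several with known links to nutrient supply, such as the cystine transporter SLC7A11, to G protein signalling, such as RGS16 and RGS4, and to chromatin, such as the histone genes of the HIST1 cluster.

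MMP2 itself was low in every MMP2sh1 library, with group means of 38.4, 59.8 and 99.4 CPM at days −2, 0 and +2 against 225, 333 and 509 CPM in the control, and MMP2sh2 was between them at 136, 155 and 290.4 CPM. Of the markers examined, the summed level of 6 mesenchymal and osteosarcoma genes was 3495 to 8211 CPM, although COL1A2 was near 0. Blood markers together were at most 1.58 CPM. The single endothelial and liver markers, CDH5 and ALB, were at most 0.629 and 0.105 CPM. The epithelial pair EPCAM and CDH1 summed to 3.24 to 7.85 CPM. Total gene counts were 3.36e+07 to 5.94e+07 reads per library, so that 1 CPM stood for 33.6 to 59.4 reads. Replicate 1 of subconfluent MMP2sh1 stood apart from its replicates, with a chi-square per gene of 17.5 and 22.2 against them, where the other 25 replicate pairs had 4.58 to 12. Its mitochondrial share was 4.24% against 6.11% and 6.55%. Without this library the rule selected 95 genes, 42 lower-then-higher and 53 higher-then-lower, of which 71 are among the 85.

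Most of the 85 genes were expressed at low levels. Over all 27 libraries, 57 had a mean CPM under 5 and 14 had 20 or more. In the lower-then-higher genes, the median log2 ratio of MMP2sh1 to control was −0.60 at day −2 (−1.34 to −0.41) and 0.60 at day +2 (0.40 to 1.69), and at day 0 it was −0.10. In the higher-then-lower genes it was 0.51 at day −2 (0.40 to 1.15), 0.05 at day 0 and −0.60 at day +2 (−1.41 to −0.40). The MMP2sh1 and control libraries did not overlap at day −2 in 57 of the 85, beside 32.7% of all genes over the level. At day +2 they did not overlap in 62, beside 34.4%, and 44 were separate at both stages, beside 13.6%. These shares follow from the choice of the genes. At the edge of the rule, SLC25A18 (smaller ratio 0.402) and EFCAB13 (0.406) were just inside and SORCS1 (0.399) and MUC4 (0.398) just outside among the lower-then-higher genes. Among the higher-then-lower genes SLC2A4 (0.403) and PDCD2L (0.404) were just inside, and ZNF385B (0.396) and RPL29P19 (0.395) just outside.

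**Figure D1:**
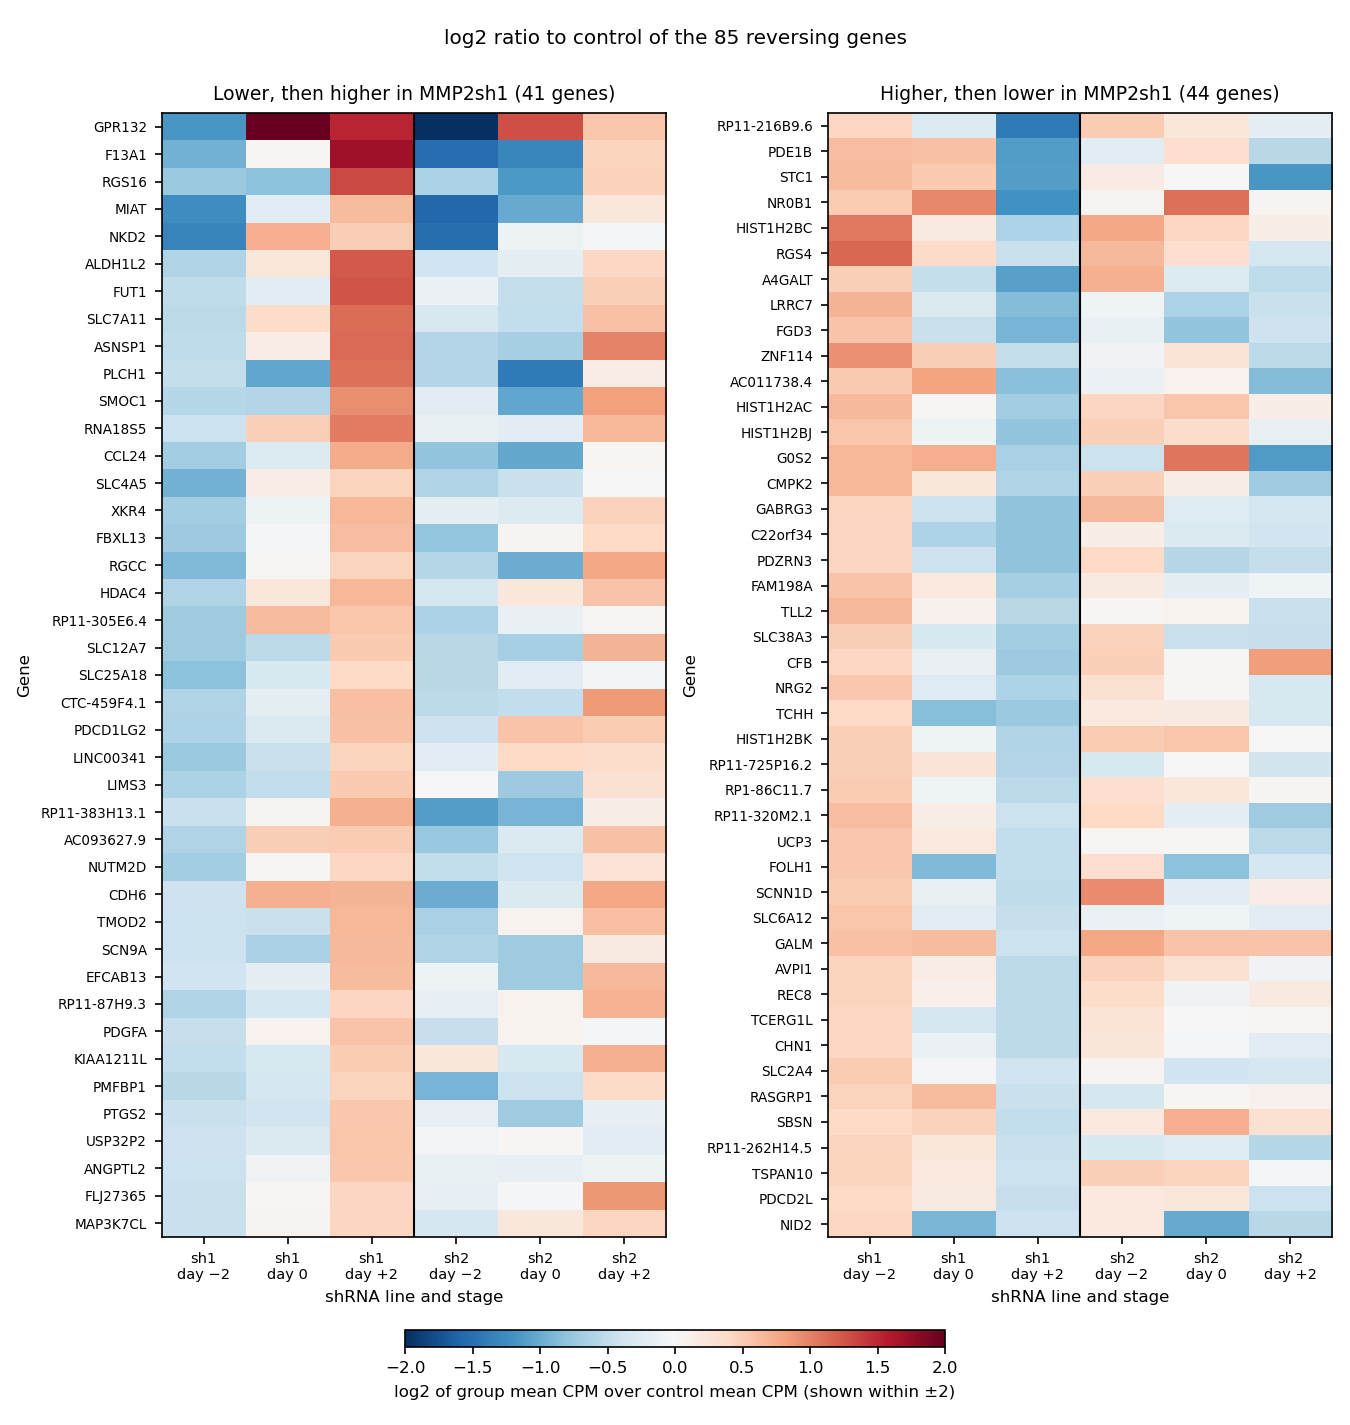
Heat map of the log2 ratio of group mean CPM to control mean CPM for the 85 genes (rows) in MMP2sh1 and MMP2sh2 at the 3 stages (columns), from blue (lower) to red (higher), shown within ±2, which GPR132 exceeds. In each panel the sign of the MMP2sh1 columns for day −2 and day +2 was fixed by the rule. The MMP2sh1 column for day 0 lies between them in 67 of the 85 genes, as any ratio under 0.4 in size must.

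At confluence the MMP2sh1 ratio lay between its subconfluent and overconfluent values in 67 of the 85 genes. The confluent ratio was on the subconfluent side of 0 in 46 and on the overconfluent side in 39. It was under 0.4 in size in 54, and the rule alone places these between the other stages. Over all 14287 genes that reached the level, the quartiles of this ratio were −0.14 and 0.10, so no graded course is read from the 67. When tested on the confluent libraries alone, 8 of the 41 lower-then-higher genes were called in MMP2sh1 against control (edgeR's quasi-likelihood test, adjusted p under 0.05 over all 19536 genes tested), 4 higher and 4 lower. This was 9.76% in each direction, beside 8.26% of all tested genes called higher and 8.58% called lower. Of the 44 higher-then-lower genes, 6 were called higher (13.6%) and 3 lower (6.82%). The called share was thus near that of all genes, and most members showed no called difference in confluent MMP2sh1. The median size of the log2 fold change was 0.28 and 0.26 in the 2 directions, beside 0.16 for all genes tested. The members had lower levels, with a median of 2.81 and 3.11 CPM beside 26.8 CPM for all genes over the level. How far level accounts for these sizes was not tested.

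MMP2sh2, the second hairpin line, was compared with the same confluent control libraries, so its values share their error with those of MMP2sh1. Of the 41 lower-then-higher genes, 11 were called lower in confluent MMP2sh2 (26.8%) beside 5.81% of all 19063 genes tested, and 1, GPR132, was called higher beside 7.07%. The median log2 fold change was −0.26, and 30 of the 41 were below 0. Of the 44 higher-then-lower genes, 9 were called higher (20.5%) and 4 lower (9.09%), with a median of 0.07. The calls in confluent MMP2sh2 had the subconfluent direction of MMP2sh1 in 11 of 12 genes of the first set and 9 of 13 of the second. Of all genes tested, 1348 were called higher and 1108 lower, so calls as a whole also leaned higher. The 9 include HIST1H2AC, HIST1H2BC, HIST1H2BJ and HIST1H2BK, among which the split of reads is uncertain. No direction is therefore read from the 9 of 13.

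The response of MMP2sh2 to density can be tested without any library that the rule used. From day −2 to day +2, 27 of the 41 lower-then-higher genes rose in MMP2sh2 (65.9%), beside 27.7% of all 19175 genes tested, and 2 fell (4.88%), beside 27.1%. Their median log2 fold change was 0.85, against 0.05 for all genes. Of the 44 higher-then-lower genes, 18 fell (40.9%) and 7 rose (15.9%), with a median of −0.33. The shares of all tested genes, here and at confluence, include genes under the level that members had to reach. The rule also favoured a response in MMP2sh1, where the mean rose in 39 of the 41 genes and fell in 32 of the 44. How much of the MMP2sh2 response is one that all the lines share was not tested. In the ratios of mean CPM, the median change of the lower-then-higher genes from day −2 to day +2 was 0.16 in the control, 0.99 in MMP2sh2 and 1.57 in MMP2sh1, and that of the higher-then-lower genes was 0.37, −0.20 and −0.95. The rule set the values of the control and MMP2sh1 apart, so nothing is read from where MMP2sh2 lies relative to them.

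**Figure D2:**
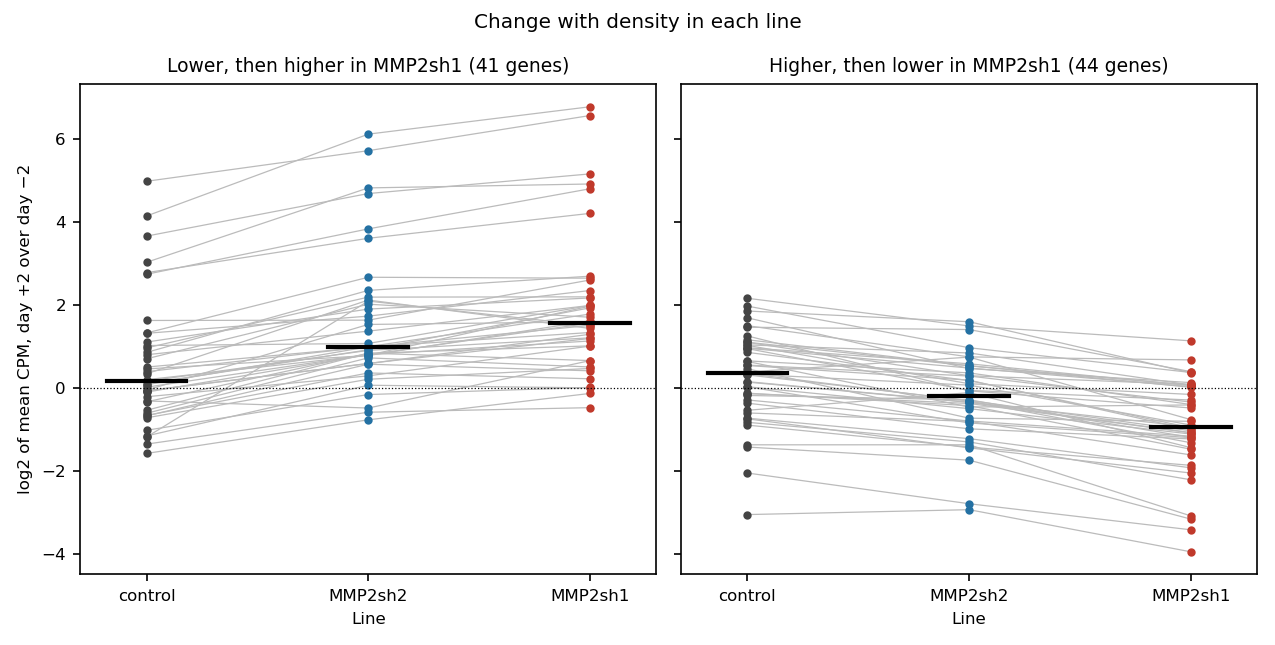
Change with density in each line, as the log2 of mean CPM at day +2 over day −2 (vertical axis), for the lower-then-higher genes (left) and the higher-then-lower genes (right), with 1 point per gene, grey lines joining a gene and black bars at the medians. The medians are 0.16, 0.99 and 1.57 on the left and 0.37, −0.20 and −0.95 on the right, in the order control, MMP2sh2 and MMP2sh1.

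The control took different courses over the stages in these genes. Of the 41 lower-then-higher genes, 24 had a higher mean at day +2 than at day −2 in both the control and MMP2sh1, 15 had a lower mean in the control and a higher one in MMP2sh1, and 2 had a lower mean in both. Of the 44 higher-then-lower genes, 17 had a higher mean at day +2 in the control and a lower one in MMP2sh1, 15 a lower mean in both and 12 a higher mean in both. In MMP2sh2 at the stages of the rule, where the control libraries are those that chose the genes, 40 of the 41 lower-then-higher genes were below control at day −2 and 35 were above it at day +2. Of the 44 higher-then-lower genes, 34 were above control at day −2 and 32 below it at day +2. Of all 14287 genes over the level, 8106 were below control in MMP2sh2 at day −2 and 6181 above it. At day +2, 7106 were below and 7181 above. Error in the control libraries that helped to choose a gene moves the ratios of both shRNA lines the same way, so these counts are a description only.

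Several lower-then-higher genes had far higher levels at day +2 than at day −2 in every line. F13A1, the gene of the A subunit of coagulation factor XIII (GRCh37 chromosome 6, 6144317 to 6321246), was at 3.00, 3.25 and 2.45 CPM in the subconfluent control libraries and 1.23, 1.58 and 1.72 CPM in MMP2sh1. At day +2 it reached 58.0, 53.6 and 42.6 CPM in the control and 165, 159 and 175 CPM in MMP2sh1. Every MMP2sh1 library was below every control library at the first stage and above at the last, with log2 ratios of −0.94 and 1.69. In confluent cells the control had 4.29, 4.60 and 4.85 CPM and MMP2sh1 4.77, 4.34 and 4.97 CPM, with overlapping libraries and no call (log2 fold change 0.05, SE 0.16, edgeR adjusted p = 0.89). Confluent MMP2sh2 had 2.01, 1.97 and 1.55 CPM, all below the control (log2 fold change −1.27, SE 0.21, edgeR adjusted p = 4.6e-05). Within MMP2sh2, F13A1 rose from 0.954, 0.999 and 1.07 CPM to 71.2, 64.3 and 75.2 CPM (log2 fold change 5.99, SE 0.12, edgeR adjusted p = 1.9e-27).

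SMOC1, which encodes a secreted calcium-binding protein of the matrix (GRCh37 chromosome 14, 70320848 to 70499083), followed the same course but was still low in both shRNA lines at confluence. It was at 9.77, 10.3 and 9.08 CPM in the control and 4.91, 7.02 and 7.72 CPM in MMP2sh1 at day −2, and at 141, 124 and 104 CPM and 243, 230.4 and 230.3 CPM at day +2. Confluent levels were 18.3, 20.8 and 19.7 CPM in the control, 12.5, 12.1 and 14.8 CPM in MMP2sh1 and 8.27, 9.87 and 10.4 CPM in MMP2sh2. The 3 lines did not overlap at confluence, and SMOC1 was lower than control in MMP2sh1 (log2 fold change −0.57, SE 0.10, edgeR adjusted p = 4.7e-05) and in MMP2sh2 (log2 fold change −1.0, SE 0.10, edgeR adjusted p = 7.7e-09). In MMP2sh2 it then rose to 222, 231 and 200.4 CPM at day +2 (log2 fold change 4.55, SE 0.09, edgeR adjusted p = 1.9e-27 against day −2).

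MIAT, a long noncoding RNA gene, had 22.8, 22.2 and 24.8 CPM in the subconfluent control, 8.08, 10.4 and 10.9 CPM in MMP2sh1 and 8.05, 7.97 and 7.49 CPM in MMP2sh2. Both shRNA lines were thus below every control library at day −2. At confluence MMP2sh1 had 23.8, 22.4 and 27.6 CPM and overlapped the control at 26.7, 28.6 and 30.7 CPM (log2 fold change −0.21, SE 0.08, edgeR adjusted p = 0.083), while MMP2sh2 at 15.5, 14.1 and 13.2 CPM did not (log2 fold change −0.96, SE 0.09, edgeR adjusted p = 5.1e-10). At day +2 the levels were 211, 188 and 172 CPM in the control, 341, 291 and 256 CPM in MMP2sh1 and 236, 232 and 198 CPM in MMP2sh2. The control and MMP2sh2 overlapped there, and MMP2sh1 was above both.

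RGS16, which speeds the inactivation of G protein alpha subunits, was at 4.53, 6.41 and 4.35 CPM in the subconfluent control and 3.14, 3.40 and 2.62 CPM in MMP2sh1, and at day +2 at 35.9, 36.0 and 30.5 CPM and 89.0, 75.7 and 91.0 CPM. In confluent cells it was lower in MMP2sh1 at 2.64, 3.74 and 2.44 CPM than in the control at 4.74, 5.62 and 5.29 CPM (log2 fold change −0.81, SE 0.19, edgeR adjusted p = 0.0018), and lower in MMP2sh2 at 2.48, 1.97 and 2.58 CPM (log2 fold change −1.11, SE 0.19, edgeR adjusted p = 9.1e-05). PLCH1, the phospholipase C eta 1 gene, had 0.808, 1.39 and 0.825 CPM in the subconfluent control and 0.314, 1.21 and 0.643 CPM in MMP2sh1, where the libraries overlapped. It was called lower in confluent MMP2sh1 (log2 fold change −1.03, SE 0.19, edgeR adjusted p = 0.00016) and MMP2sh2 (log2 fold change −1.37, SE 0.21, edgeR adjusted p = 1e-05) and had 32.5, 35.2 and 28.0 CPM in the control and 60.8, 72.9 and 72.0 CPM in MMP2sh1 at day +2. In MMP2sh2 it rose over the expansion (log2 fold change 5.53, SE 0.16, edgeR adjusted p = 4.5e-23).

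GPR132, a G protein-coupled receptor gene, took another course, with lower control levels at the later stages. The control had 6.13, 8.71 and 6.01 CPM at day −2, 0.801, 1.13 and 0.396 CPM at day 0 and 3.76, 3.19 and 2.24 CPM at day +2. MMP2sh1 had 3.48, 3.15 and 2.69 CPM, 4.07, 3.29 and 4.50 CPM and 8.57, 9.16 and 8.67 CPM at these stages, so that it was below the control in the first and above it in the others without overlap. At confluence GPR132 was higher in MMP2sh1 (log2 fold change 2.35, SE 0.28, edgeR adjusted p = 1.6e-07) and in MMP2sh2 at 1.27, 2.19 and 2.24 CPM (log2 fold change 1.32, SE 0.37, edgeR adjusted p = 0.012). The MMP2sh2 call was lost when replicate 2 or 3 of MMP2sh2 or replicate 3 of the control was left out, with adjusted p values of 0.082, 0.063 and 0.067. In MMP2sh2 the gene rose over the expansion (log2 fold change 1.95, SE 0.25, edgeR adjusted p = 8.3e-08).

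CCL24, the gene of the chemokine eotaxin-2, and RGCC, a regulator of the cell cycle, were called lower in confluent MMP2sh2 and not called in confluent MMP2sh1. CCL24 had 5.29, 5.05 and 4.60 CPM in the confluent control, 3.99, 4.67 and 3.69 CPM in MMP2sh1 (log2 fold change −0.26, SE 0.17, edgeR adjusted p = 0.32) and 2.15, 2.71 and 2.53 CPM in MMP2sh2 (log2 fold change −0.98, SE 0.19, edgeR adjusted p = 0.00046). RGCC was chosen for mention after its values were seen, and had log2 fold changes of 0.04 in MMP2sh1 (edgeR adjusted p = 0.94) and −0.95 in MMP2sh2 (edgeR adjusted p = 0.014). The RGCC call was lost without replicate 3 of MMP2sh2 or replicate 1 or 3 of the control, with adjusted p values up to 0.076. HDAC4, the gene of a class IIa histone deacetylase, had ratios of −0.60 and 0.66 in MMP2sh1 but no call at confluence, where the control had 4.47, 3.30 and 3.61 CPM and MMP2sh1 4.48, 4.07 and 4.82 CPM (log2 fold change 0.24, SE 0.18, edgeR adjusted p = 0.41). It rose in MMP2sh2 over the expansion (log2 fold change 0.85, SE 0.18, edgeR adjusted p = 0.00016).

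**Figure D3:**
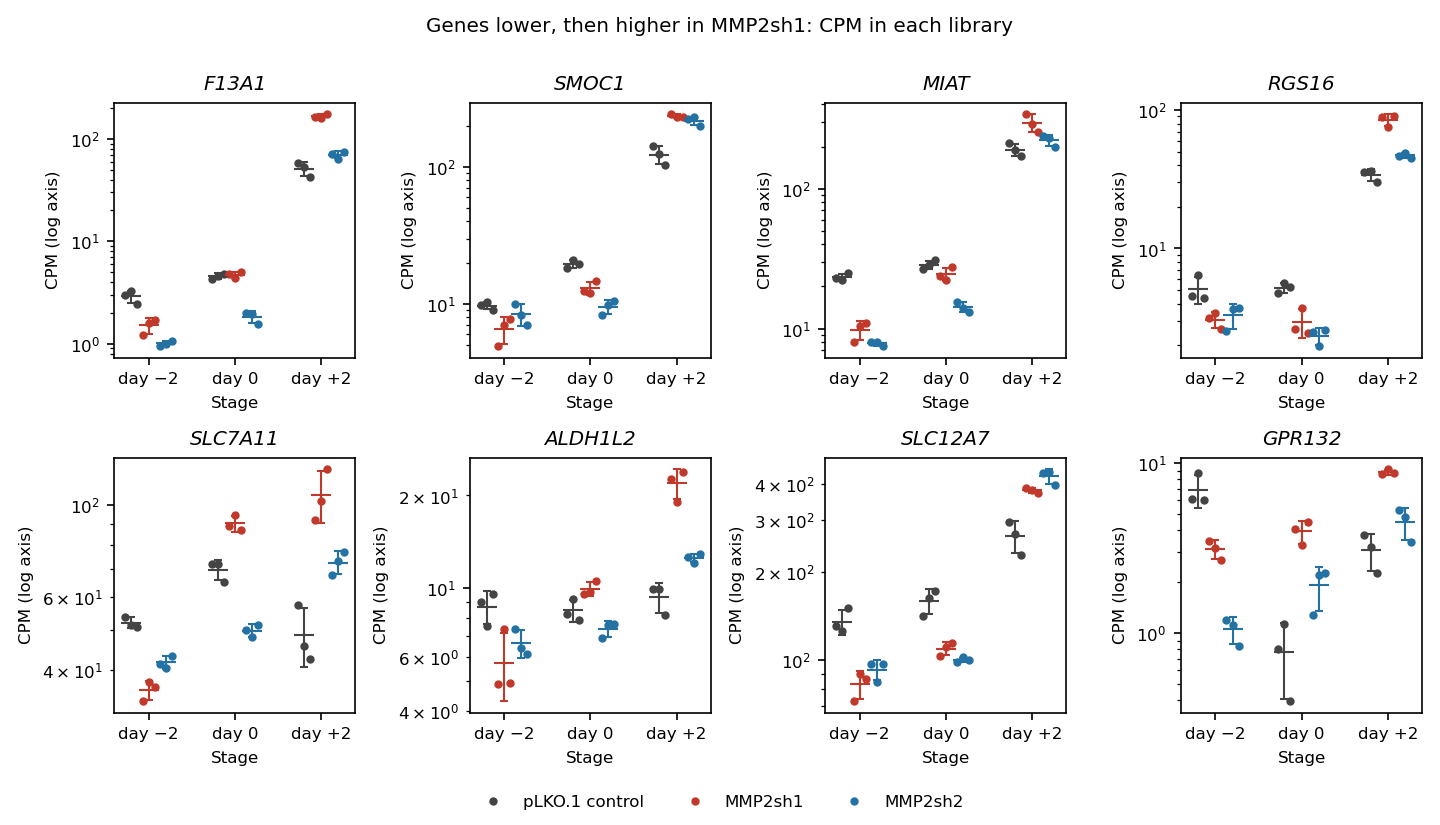
CPM of 8 lower-then-higher genes in each library (points, log axis) at the 3 stages, for the control (grey), MMP2sh1 (red) and MMP2sh2 (blue), with bars at the mean ± SD of 3 libraries. Red lies below grey at day −2 and above it at day +2 in each panel, as the rule requires, and blue lies lowest at day 0 except for GPR132.

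The lower-then-higher genes SLC7A11 and ALDH1L2 are on a list of integrated stress response genes. In that response, shortage of amino acids or other stress raises the transcription factor ATF4 and with it genes of amino acid import and synthesis. SLC7A11, which imports cystine in exchange for glutamate (GRCh37 chromosome 4, 139085251 to 139163503), had 53.7, 51.2 and 50.8 CPM in the subconfluent control and 33.5, 37.2 and 36.2 CPM in MMP2sh1. At day 0 the levels were 72.2, 72.1 and 65.2 CPM in the control, 89.0, 94.8 and 87.0 CPM in MMP2sh1 and 49.9, 47.8 and 51.4 CPM in MMP2sh2. The 3 lines did not overlap at confluence, with MMP2sh1 above the control and MMP2sh2 below it. SLC7A11 was thus higher in confluent MMP2sh1 (log2 fold change 0.38, SE 0.05, edgeR adjusted p = 2.2e-06) and lower in confluent MMP2sh2 (log2 fold change −0.45, SE 0.06, edgeR adjusted p = 8.4e-07). At day +2 it was at 57.3, 45.6 and 42.5 CPM in the control, 92.2, 103 and 122 CPM in MMP2sh1 and 67.7, 73.2 and 76.9 CPM in MMP2sh2. Within MMP2sh2 it rose from 41.2, 40.4 and 43.3 CPM at day −2 (log2 fold change 0.67, SE 0.07, edgeR adjusted p = 2.5e-09).

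ALDH1L2, the gene of a mitochondrial enzyme of folate metabolism, had 9.04, 7.53 and 9.56 CPM in the subconfluent control and 4.89, 7.38 and 4.91 CPM in MMP2sh1, and 9.98, 9.94 and 8.18 CPM and 22.7, 19.1 and 23.8 CPM at day +2. The control libraries of these stages overlapped, and every MMP2sh1 library at day +2 was above every one at day −2. At confluence MMP2sh1 had 9.55, 9.76 and 10.5 CPM, above the control at 8.27, 9.25 and 7.89 CPM but not called (log2 fold change 0.24, SE 0.12, edgeR adjusted p = 0.18), and MMP2sh2 had 6.89, 7.60 and 7.66 CPM (log2 fold change −0.16, SE 0.13, edgeR adjusted p = 0.5). In MMP2sh2 it rose over the expansion (log2 fold change 0.79, SE 0.13, edgeR adjusted p = 3.3e-06). ASNSP1, a pseudogene of the asparagine synthetase gene ASNS, is also a member, chosen for mention after its values were seen, with MMP2sh1 ratios of −0.50 and 1.14 at a mean of 1.44 CPM, and its reads may be shared with its parent gene.

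Both SLC7A11 and ALDH1L2 come from a list of 30 stress response genes, of which 28 were over the level. Without regard to size, 15 of the 28 were lower and then higher in MMP2sh1 and 2 the reverse, beside 20.8% and 21.8% of all 14287 genes. The list's median log2 ratio was −0.06 at day −2 and 0.41 at day +2. A list without members leaned this way too, with 20 of 37 matrix protein and collagen genes lower and then higher and 2 the reverse. These counts are a description, since the rule used the same libraries. In the tests on other libraries, 7 of the 30 were called higher and 3 lower in confluent MMP2sh1 (median 0.05), beside 8.26% and 8.58% of all genes. In confluent MMP2sh2, 2 were higher and 4 lower (median 0.02), beside 7.07% and 5.81%, and over the expansion of MMP2sh2 16 rose and 7 fell (median 0.29), beside 27.7% and 27.1%.

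Solute carriers, the membrane transporters named SLC, gave 4 lower-then-higher and 3 higher-then-lower genes out of 237 over the level. SLC12A7 is a potassium and chloride cotransporter (GRCh37 chromosome 5, 1050499 to 1112178). The control had 131, 125 and 150.3 CPM at day −2, 141, 163 and 172 CPM at day 0 and 295, 270.5 and 229 CPM at day +2. MMP2sh1 had 72.4, 89.5 and 86.2 CPM, 103, 111 and 114 CPM and 387, 379.6 and 372 CPM, below every control library at the first 2 stages and above every one at the last. At confluence SLC12A7 was lower in MMP2sh1 (log2 fold change −0.53, SE 0.06, edgeR adjusted p = 1.2e-08) and in MMP2sh2 at 98.5, 102 and 99.7 CPM (log2 fold change −0.63, SE 0.06, edgeR adjusted p = 1.7e-10). In MMP2sh2 it rose to 435, 440.0 and 395 CPM at day +2 (log2 fold change 2.06, SE 0.06, edgeR adjusted p = 2.4e-22).

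The other carriers had few reads. SLC4A5, a sodium bicarbonate cotransporter, and SLC25A18, a mitochondrial glutamate carrier, had mean levels of 1.74 and 1.03 CPM and log2 fold changes of 0.15 and −0.28 in confluent MMP2sh1 (edgeR adjusted p = 0.79 and 0.71). SLC2A4, the insulin-responsive glucose transporter, SLC38A3, a glutamine transporter, and SLC6A12, a betaine transporter, were higher and then lower in MMP2sh1, with ratios of 0.51, 0.49 and 0.55 at day −2. None of these 5 was called against control at confluence in either line. In MMP2sh2 over the expansion SLC4A5 rose (log2 fold change 0.87, SE 0.33, edgeR adjusted p = 0.027), as did SLC2A4 (log2 fold change 0.44, SE 0.19, edgeR adjusted p = 0.046), and the other 3 were not called. The SLC4A5 call was lost under 4 of 12 alternatives and the SLC2A4 call under 7, with adjusted p values up to 0.201 without replicate 3 and 0.289 without replicate 1 of overconfluent MMP2sh2.

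Among the remaining named lower-then-higher genes, NKD2, an inhibitor of Wnt signalling, and SCN9A, a voltage-gated sodium channel gene, rose in MMP2sh2 with density (log2 fold changes 2.17 and 1.76, edgeR adjusted p = 5.4e-05 and 2.9e-07). Neither was called at confluence in MMP2sh1, with log2 fold changes of 0.73 and −0.63. RNA18S5, a copy of the 18S ribosomal RNA, is a residue in poly(A) libraries and varied widely, with 106, 77.1 and 185 CPM in the subconfluent control libraries and 48.6, 72.5 and 129.9 CPM in overconfluent MMP2sh1. It was called higher in confluent MMP2sh1 (log2 fold change 0.48, SE 0.09, edgeR adjusted p = 8.8e-05), a call lost in the fit of all 27 libraries (edgeR adjusted p = 0.173). Whether carry-over of ribosomal RNA moves with the line was not tested.

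Clone-named genes numbered 5 among the lower-then-higher genes. CTC-459F4.1 had 30.4, 33.0 and 35.7 CPM in the confluent control, 27.1, 30.8 and 29.5 CPM in MMP2sh1 (log2 fold change −0.17, SE 0.08, edgeR adjusted p = 0.13) and 22.8, 25.3 and 22.4 CPM in MMP2sh2 (log2 fold change −0.45, SE 0.08, edgeR adjusted p = 0.00013). RP11-383H13.1 was lower in confluent MMP2sh2 (log2 fold change −0.88, SE 0.24, edgeR adjusted p = 0.0095), a further clone-named gene was higher in confluent MMP2sh1 (log2 fold change 0.64, SE 0.22, edgeR adjusted p = 0.04), and RP11-87H9.3 was called in neither. The first call was lost without replicate 2 of MMP2sh2 or replicate 3 of the control (edgeR adjusted p = 0.0503 and 0.0531), and the second under 7 of 12 alternatives, every MMP2sh1 library left out among them (edgeR adjusted p up to 0.166). LINC00341, named as a noncoding gene, was not called at confluence against control and rose in MMP2sh2 with density (log2 fold change 1.24, SE 0.24, edgeR adjusted p = 4.4e-05). Reads were counted without regard to strand, so values of clone-named and noncoding genes that overlap others are uncertain.

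In the higher-then-lower direction, 4 histone genes of the HIST1 cluster on chromosome 6 stood together. Histones are the proteins that DNA is wound around, and the main histone genes are known to be transcribed mostly in S phase into mRNAs without a poly(A) tail, while some also give polyadenylated mRNAs, the kind that poly(A) selection captures. HIST1H2AC encodes an H2A protein, and HIST1H2BC, HIST1H2BJ and HIST1H2BK encode H2B proteins. Their coding sequences are close to those of other cluster members, so the split of reads among copies is uncertain.

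The RefSeq promoters of these genes (GRCh38.p14) are shown because the 4 genes moved together. Each line gives the 150 bases before the start, read 5′ to 3′ on the gene's strand, with capitals for the TATA box (TATAAA), the CCAAT box (CCAAT) and the octamer (ATTTGCAT) on either strand.
HIST1H2BC (H2BC4, chr6:26123927-26124076, minus strand): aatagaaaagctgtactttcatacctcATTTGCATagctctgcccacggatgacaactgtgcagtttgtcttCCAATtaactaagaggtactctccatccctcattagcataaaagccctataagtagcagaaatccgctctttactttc
HIST1H2AC (H2AC6, chr6:26124022-26124171, plus strand): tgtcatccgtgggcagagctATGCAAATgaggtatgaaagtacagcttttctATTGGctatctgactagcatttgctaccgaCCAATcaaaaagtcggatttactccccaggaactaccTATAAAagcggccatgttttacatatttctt
HIST1H2BJ (H2BC11, chr6:27132796-27132945, minus strand): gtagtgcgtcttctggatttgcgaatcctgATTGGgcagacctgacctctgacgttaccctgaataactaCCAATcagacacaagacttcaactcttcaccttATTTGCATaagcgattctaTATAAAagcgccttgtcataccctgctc
HIST1H2BK (H2BC12, chr6:27146859-27147008, minus strand): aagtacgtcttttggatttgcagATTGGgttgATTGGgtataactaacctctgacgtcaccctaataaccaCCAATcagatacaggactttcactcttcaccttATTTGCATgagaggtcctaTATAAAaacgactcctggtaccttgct

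HIST1H2BC and HIST1H2AC face away from each other, with starts 246 bases apart, so that their windows overlap and the octamer capitalised in both is the same 8 bases read from opposite strands. In HIST1H2BJ and HIST1H2BK the octamer begins 47 and 46 bases before the start and the TATA box 28 and 27 bases before it. HIST1H2BK has a further RefSeq start, not shown, for which these distances are 49 and 30 bases. HIST1H2BC holds no TATAAA in the window shown for it. Of the 85 genes, 53 had a RefSeq promoter, 23 lower-then-higher and 30 higher-then-lower. The shares of all promoters below count promoter entries, while a member counts as 1 gene if any of its entries holds the motif. Members with more than 1 entry, such as HIST1H2BK, have more chances of a match, so the shares are not on the same footing. In 300-base windows, TATAAA was found in 11.5% of all 35116 promoters, in 3 of the 23 and in 8 of the 30. CCAAT was found in 34.6% of all, in 8 of the 23 and in 17 of the 30. The octamer, searched after the histone promoters had been read, was found in 1.77% of all, in 0 of the 23 and in 5 of the 30, of which 4 are the histone genes. TGANTCA, the AP-1 motif, was in 7.71% of all promoters and in 1 and 4 members, TGACGTCA in 1.85% and in 0 and 2, and GGAATG in 14.0% and in 6 and 9. ACGTG was in 21.4% and in 5 and 7, and CACGTG, which contains it, in 7.26% and in 3 and 1. A match says only that the letters are there.

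For HIST1H2BK, the control had 189, 177 and 185 CPM at day −2, 173, 162 and 171 CPM at day 0 and 189, 209 and 211 CPM at day +2. MMP2sh1 had 268, 246 and 251 CPM, 159.5, 163 and 154 CPM and 135, 134 and 130.0 CPM at these stages. Every MMP2sh1 library was above every control library at day −2 and below every one at day +2, and at day 0 the ranges overlapped. At confluence HIST1H2BK was not called in MMP2sh1 (log2 fold change −0.07, SE 0.04, edgeR adjusted p = 0.28) but was higher in MMP2sh2 at 241, 248 and 252 CPM (log2 fold change 0.59, SE 0.04, edgeR adjusted p = 2.1e-12). In MMP2sh2 it fell from 256, 261 and 265 CPM at day −2 to 206, 203 and 206 CPM at day +2 (log2 fold change −0.48, SE 0.06, edgeR adjusted p = 1e-08), a level within the range of the control.

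HIST1H2AC moved in the same way. Its levels in the control were 59.9, 59.8 and 59.7 CPM, 60.8, 63.3 and 62.6 CPM and 52.96, 56.8 and 54.8 CPM at the 3 stages, and in MMP2sh1 101, 89.0 and 92.0 CPM, 64.6, 63.4 and 61.6 CPM and 34.2, 33.7 and 33.6 CPM. The confluent libraries of these lines overlapped (log2 fold change 0.04, SE 0.05, edgeR adjusted p = 0.74), and those of MMP2sh2 at 90.6, 88.3 and 95.4 CPM were above them (log2 fold change 0.60, SE 0.05, edgeR adjusted p = 2.7e-10). HIST1H2AC fell in MMP2sh2 over the expansion (log2 fold change −0.56, SE 0.07, edgeR adjusted p = 2.6e-08). Its log2 ratio of MMP2sh2 to control at day +2 was 0.13, so it did not end below the control there.

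HIST1H2BJ had 29.6, 32.4 and 35.0 CPM in subconfluent and 15.2, 14.4 and 17.9 CPM in overconfluent MMP2sh1 against 23.6, 20.3 and 21.9 CPM and 26.1, 27.5 and 28.4 CPM in the control. In confluent cells it was not called in MMP2sh1 (log2 fold change −0.10, SE 0.08, edgeR adjusted p = 0.46) and was higher in MMP2sh2 (log2 fold change 0.39, SE 0.08, edgeR adjusted p = 0.00043). HIST1H2BC, with a mean of 5.28 CPM, had ratios of 1.05 and −0.62 in MMP2sh1. Its call in confluent MMP2sh2 (log2 fold change 0.46, SE 0.15, edgeR adjusted p = 0.035) was lost under 7 of 12 alternatives, among them replicate 1 or 3 of either line left out, with adjusted p values up to 0.158. Both genes fell in MMP2sh2 over the expansion, by 0.44 and 0.45 on the log2 scale (edgeR adjusted p = 8.2e-05 and 0.03), and the HIST1H2BC call was lost under DESeq2, without replicate 1 of either stage and without replicate 3 of day −2, with adjusted p values up to 0.196. At day +2 the log2 ratios of MMP2sh2 to control were −0.14 for HIST1H2BJ and 0.12 for HIST1H2BC.

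The 4 genes belong to a list of histone gene names, of which 33 were over the level. It also holds the antisense gene H1FX-AS1, the pseudogenes H3F3AP4 and H3F3AP6 and variant histone genes such as H3F3A. In MMP2sh1, 22 of the 33 were higher and then lower at any size and 2 the reverse, beside 21.8% and 20.8% of all genes. The list medians were 0.06 at day −2 and −0.38 at day +2. Lists without members leaned this way too. Of 80 cytosolic ribosomal protein genes 51 did and 4 the reverse, and of 31 hypoxia and glycolysis genes 16 and 1. In confluent MMP2sh1, 1 of 49 tested genes of the histone list was called higher and 9 lower (median −0.18), beside 8.26% and 8.58% of all genes. In confluent MMP2sh2, 6 of 49 were higher and 1 lower (median 0.04), beside 7.07% and 5.81%. Over the expansion of MMP2sh2, 13 of 53 rose and 10 fell, no larger shares than the 27.7% and 27.1% of all genes. Against the same shares of all genes, a list of 30 proliferation genes had 5 higher and 6 lower in confluent MMP2sh1, 1 higher and 2 lower in confluent MMP2sh2, and 2 that rose and 23 that fell in MMP2sh2 over the expansion. The part of cell division in the histone values was not tested.

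**Figure D4:**
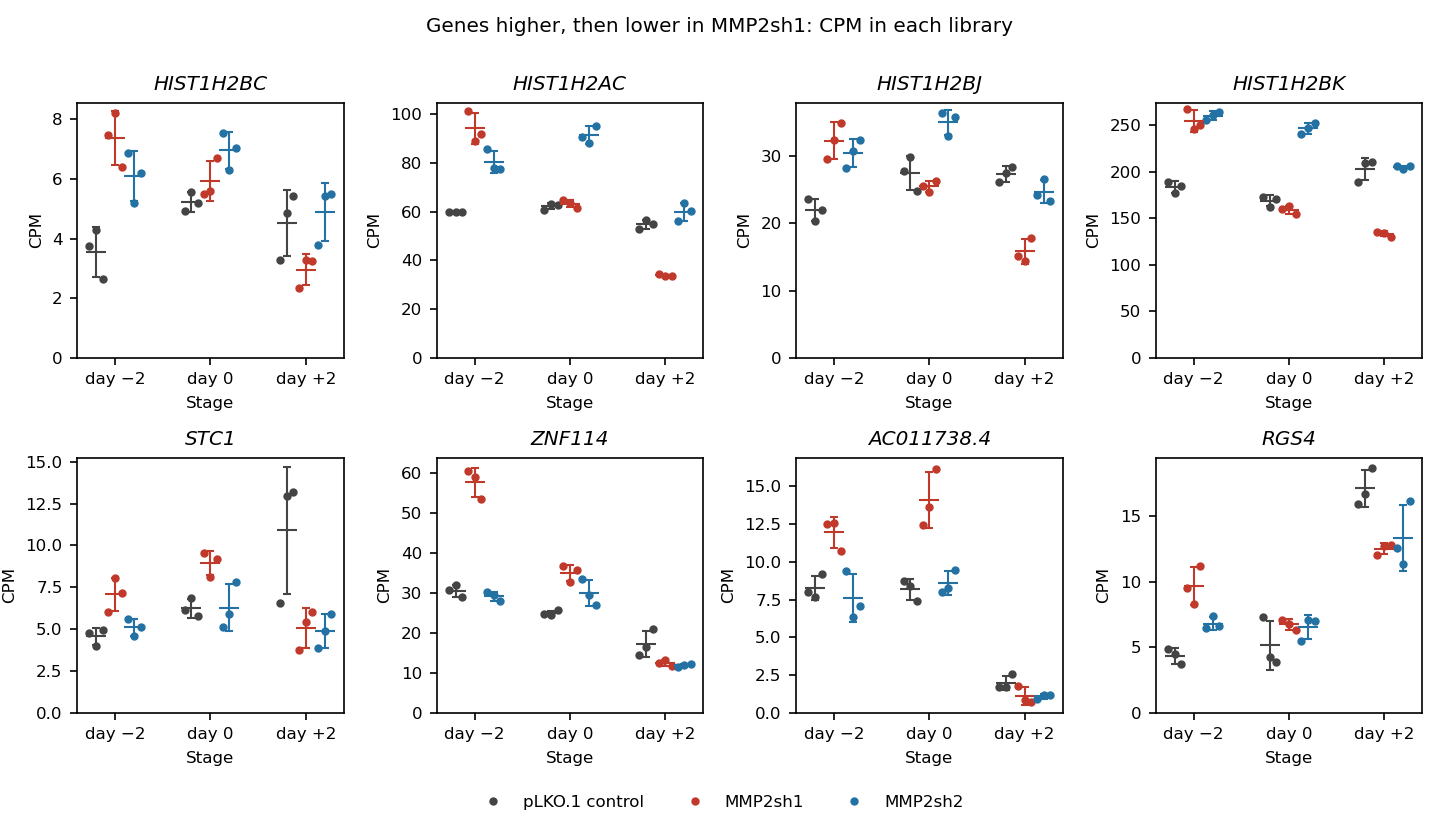
CPM of 8 higher-then-lower genes in each library (points, linear axis from 0) at the 3 stages, for the control (grey), MMP2sh1 (red) and MMP2sh2 (blue), with bars at the mean ± SD of 3 libraries. In the 4 histone panels red lies above grey at day −2, overlaps or nears it at day 0 and lies below it at day +2, and every blue point lies above every grey point at day 0.

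ZNF114, a zinc finger gene, had 30.7, 31.9 and 28.9 CPM in the subconfluent control and 60.5, 58.8 and 53.4 CPM in MMP2sh1. At confluence it was at 24.7, 24.5 and 25.6 CPM and 36.6, 32.6 and 35.6 CPM, and at day +2 at 14.4, 16.4 and 20.9 CPM and 12.4, 13.1 and 11.7 CPM. Levels at day +2 were the lowest of the 3 stages in both lines, and MMP2sh1 was above every control library until day 0 and below every one at day +2. ZNF114 was higher in confluent MMP2sh1 (log2 fold change 0.50, SE 0.07, edgeR adjusted p = 4.6e-06) and in MMP2sh2 (log2 fold change 0.31, SE 0.08, edgeR adjusted p = 0.0085), the latter not without replicate 1 of confluent MMP2sh2 (edgeR adjusted p = 0.134). It was the only member among 437 zinc finger genes over the level.

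STC1, the gene of the secreted glycoprotein stanniocalcin 1, went in the control from 4.78, 3.98 and 4.95 CPM at day −2 to 6.54, 12.98 and 13.2 CPM at day +2, while MMP2sh1 went from 6.04, 8.03 and 7.14 CPM to 3.75, 5.42 and 6.02 CPM. The overconfluent control libraries were themselves spread, with replicate 1 low. In confluent cells STC1 was higher in MMP2sh1 at 9.52, 8.13 and 9.17 CPM than in the control at 6.14, 6.86 and 5.76 CPM (log2 fold change 0.53, SE 0.13, edgeR adjusted p = 0.0037), a call lost in the fit of all 27 libraries (edgeR adjusted p = 0.0546), and not called in MMP2sh2 (log2 fold change 0.05, SE 0.16, edgeR adjusted p = 0.9). AC011738.4, a clone-named gene, was likewise higher in confluent MMP2sh1 at 12.5, 13.6 and 16.1 CPM than in the control at 8.72, 8.37 and 7.42 CPM (log2 fold change 0.79, SE 0.12, edgeR adjusted p = 5e-06) and not called in MMP2sh2 (log2 fold change 0.11, SE 0.13, edgeR adjusted p = 0.66). It fell in MMP2sh2 over the expansion (log2 fold change −2.92, SE 0.21, edgeR adjusted p = 3e-13).

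RGS4, like RGS16 a brake on G protein signalling, took the opposite course to RGS16 relative to the control. The control had 4.88, 4.48 and 3.70 CPM at day −2 and 15.9, 16.7 and 18.7 CPM at day +2, and MMP2sh1 9.52, 8.28 and 11.2 CPM and 12.1, 12.7 and 12.8 CPM, so that the shRNA line was above every control library first and below every one last. At confluence RGS4 was not called in MMP2sh1 (log2 fold change 0.40, SE 0.17, edgeR adjusted p = 0.12) or MMP2sh2 (log2 fold change 0.38, SE 0.18, edgeR adjusted p = 0.18), and it rose in MMP2sh2 over the expansion (log2 fold change 0.83, SE 0.14, edgeR adjusted p = 4.5e-06).

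SBSN, the suprabasin gene, and AVPI1, a vasopressin-induced gene, had lower means at day +2 than at day −2 in all 3 lines. SBSN had 5.16, 6.11 and 7.32 CPM in the confluent control, 8.78, 8.53 and 8.28 CPM in MMP2sh1 (log2 fold change 0.48, SE 0.14, edgeR adjusted p = 0.014) and 7.41, 11.6 and 11.8 CPM in MMP2sh2 (log2 fold change 0.77, SE 0.15, edgeR adjusted p = 0.00051). The MMP2sh1 call was lost without replicate 1 of either line, with adjusted p values of 0.058 and 0.104. AVPI1 was higher in confluent MMP2sh2 at 31.7, 30.9 and 29.9 CPM than in the control at 27.2, 22.8 and 24.9 CPM (log2 fold change 0.35, SE 0.08, edgeR adjusted p = 0.0022). It was not called in MMP2sh1 (log2 fold change 0.16, SE 0.08, edgeR adjusted p = 0.18), and the direct test did not call a difference between the hairpin lines (log2 fold change −0.18, SE 0.07, edgeR adjusted p = 0.071). Both fell in MMP2sh2 from day −2 to day +2, by 3.07 and 1.56 on the log2 scale (edgeR adjusted p = 1.3e-15 and 3.3e-15).

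FOLH1 and NID2 were already below the control at confluence. FOLH1, the gene of a glutamate carboxypeptidase of the cell surface, had 4.31, 5.49 and 3.51 CPM in the confluent control, 2.20, 2.60 and 2.41 CPM in MMP2sh1 (log2 fold change −0.88, SE 0.20, edgeR adjusted p = 0.002) and 3.00, 2.00 and 2.55 CPM in MMP2sh2 (log2 fold change −0.78, SE 0.21, edgeR adjusted p = 0.011). NID2, which encodes the basement membrane protein nidogen 2, had 3.11, 3.25 and 3.78 CPM, 1.94, 1.25 and 2.20 CPM (log2 fold change −0.90, SE 0.24, edgeR adjusted p = 0.0063) and 1.38, 1.86 and 1.82 CPM (log2 fold change −0.96, SE 0.24, edgeR adjusted p = 0.0045) in the same order. Neither shRNA line overlapped the control at confluence. The FOLH1 call in MMP2sh2 was lost without replicate 2 of either line (edgeR adjusted p = 0.081 and 0.113), and the NID2 call in MMP2sh1 without replicate 2 of MMP2sh1 (edgeR adjusted p = 0.062). The log2 ratios of MMP2sh1 at confluence (−0.89 and −0.91) were beyond those at day +2 (−0.49 and −0.41). Both genes rose with density in MMP2sh2 (log2 fold changes 1.36 and 0.61, edgeR adjusted p = 5.1e-06 and 0.033), and the NID2 call was lost under 5 of 12 alternatives, replicate 2 or 3 of either stage left out and DESeq2, with adjusted p values up to 0.221.

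The last named genes of this direction had low levels. CMPK2, an interferon-inducible nucleotide kinase of mitochondria, had a mean of 1.80 CPM, was not called at confluence in MMP2sh1 (log2 fold change 0.24, SE 0.27, edgeR adjusted p = 0.64) and fell in MMP2sh2 over the expansion (log2 fold change −0.86, SE 0.34, edgeR adjusted p = 0.032), a call lost under 5 of 12 alternatives, with an adjusted p up to 0.148 without replicate 2 of overconfluent MMP2sh2. It was the only reversing gene among 33 interferon-stimulated genes over the level. The clone-named RP1-86C11.7, RP11-725P16.2 and RP11-216B9.6 had log2 fold changes of −0.09, 0.28 and −0.26 in confluent MMP2sh1, none called, and RP11-725P16.2 rose in MMP2sh2 (log2 fold change 1.28, SE 0.22, edgeR adjusted p = 1.3e-05). In all, 27 of the 85 genes were called in none of the 3 tests, 10 lower-then-higher and 17 higher-then-lower, a share near the 29.1% of all genes over the level that were called in none.

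**Figure D5:**
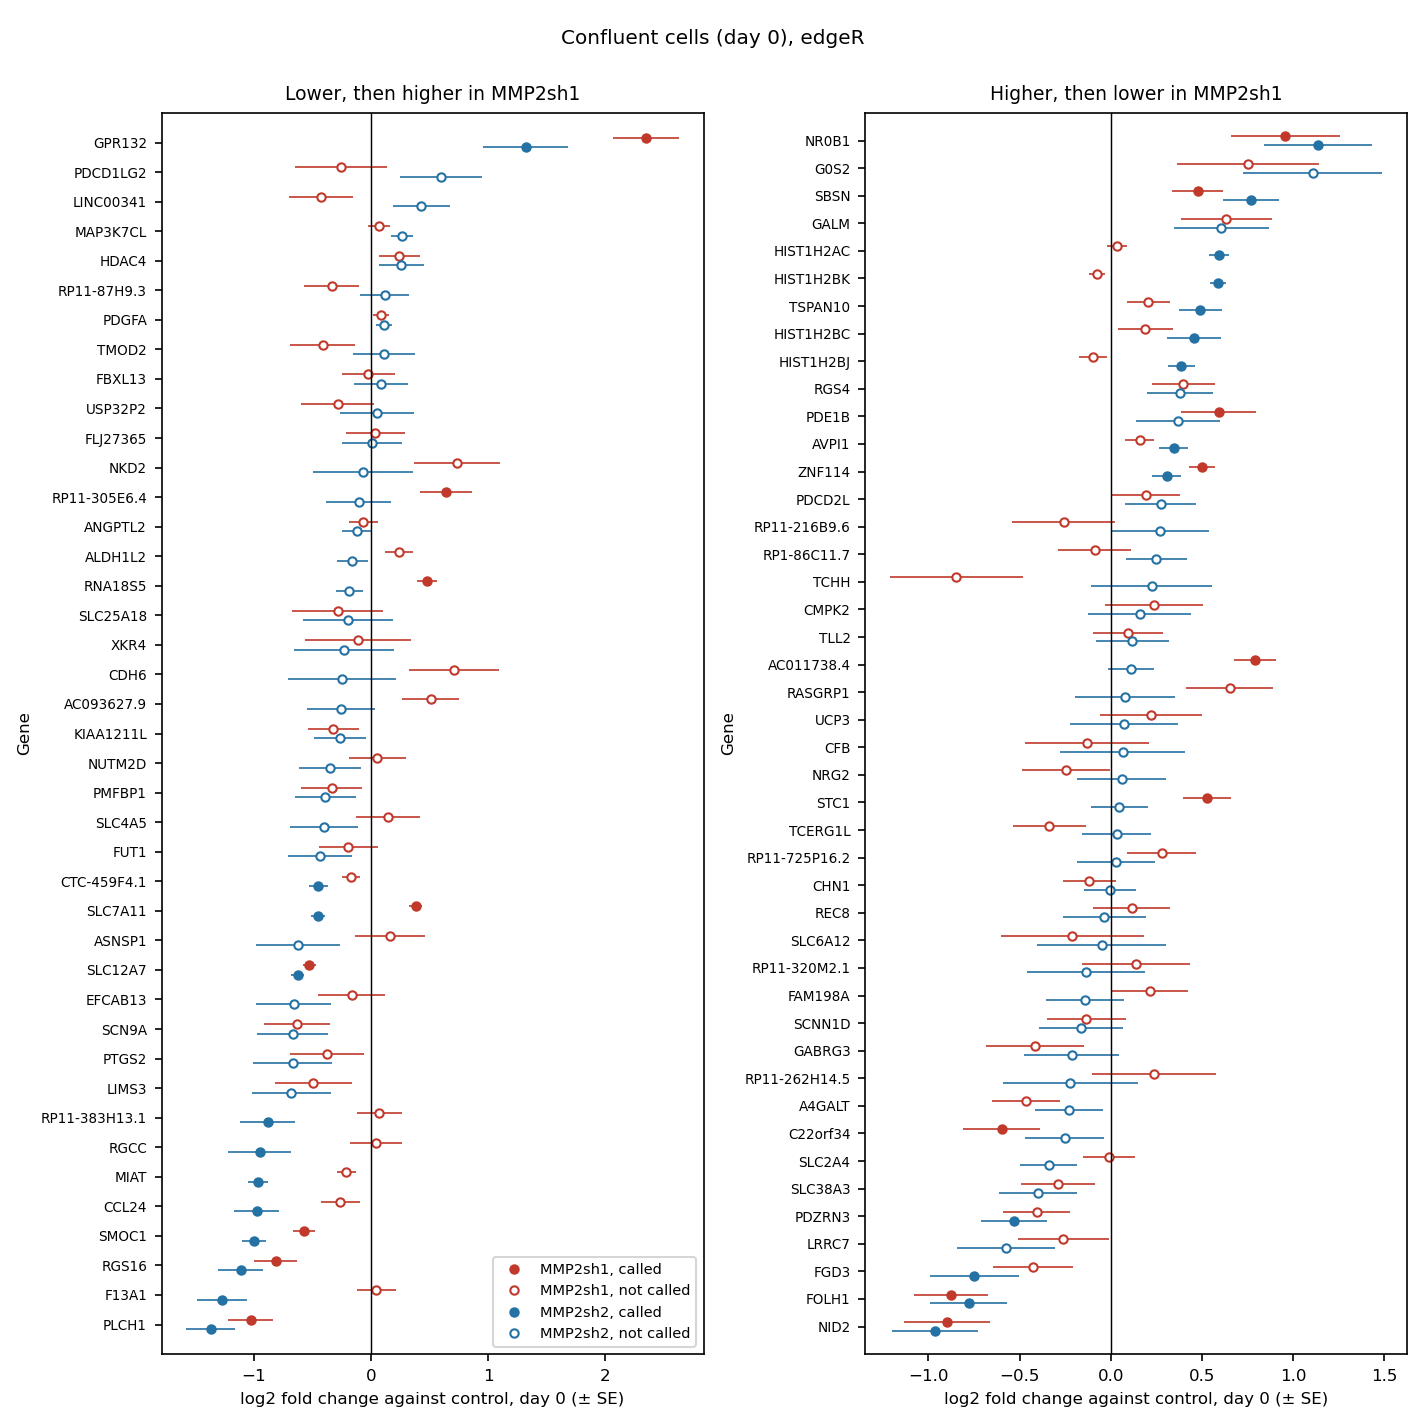
log2 fold change against control at day 0 (horizontal axis, ± SE, edgeR) for each gene of both directions, for MMP2sh1 (red) and MMP2sh2 (blue), with filled points for genes called at adjusted p under 0.05. In the left panel 4 red points are called higher and 4 lower, and 1 blue point is called higher and 11 lower.

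The 2 shRNA lines were also compared directly at confluence, a comparison added after the other results were seen and free of the shared control. Of the 41 lower-then-higher genes, 13 were higher in MMP2sh1 than in MMP2sh2 (31.7%), beside 8.90% of all 18875 genes tested, and 1 was lower, beside 9.62%. The median log2 fold change was 0.30, against 0.00 for all genes. Of the 44 higher-then-lower genes, 2 were higher (4.55%) and 4 lower (9.09%), and the median was −0.05. SLC7A11 (log2 fold change 0.84, SE 0.05, edgeR adjusted p = 8e-14), MIAT (log2 fold change 0.76, SE 0.09, edgeR adjusted p = 1.3e-07) and F13A1 (log2 fold change 1.32, SE 0.20, edgeR adjusted p = 6.6e-06) were among the 13, and HIST1H2BK (log2 fold change −0.66, SE 0.04, edgeR adjusted p = 7.7e-15) among the 4. SLC12A7 (log2 fold change 0.10, SE 0.05, edgeR adjusted p = 0.15) and RGS16 (log2 fold change 0.30, SE 0.23, edgeR adjusted p = 0.41), both low in the 2 lines, were not called between them.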

How the data were processed

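Poly(A) RNA-Seq of 27 U2OS libraries, 9 groups of 3, was used, grouped by the sample labels. Per the submitters' processing notes, the authors used Trim Galore 0.6.0 for trimming, STAR 2.7.3a for alignment (hg19) and HTSeq 2.0.0 for counting. The study's methods give exons as the feature, no use of strand and a minimum quality of 10. What the authors deposited is whole-number counts, 1 value per gene symbol and library. HTSeq summary lines (16.8% to 19.1%) were left out. Members and gene lists were chosen with earlier results of these data known.

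CPM is the count over total gene counts. For each comparison, edgeR 4.0.16 was run on its 6 libraries (R 4.3.3, TMM scaling, filterByExpr with minimum count 10 and total 15, quasi-likelihood F test), adjusted by Benjamini-Hochberg over all genes tested and called under 0.05. SE is the log2 fold change over the square root of F. Only the fit of confluent MMP2sh1 against control was tried on simulated data, with a single fixed size of change. Changes as small as those of most members at confluence were not simulated. Alternatives used DESeq2 1.42.0, other scaling or filters, all libraries, a replicate block and left-out libraries. Same-numbered libraries of different groups had correlated deviations of −0.067 to 0.044, so numbers were not treated as pairs. Named genes were the 8 per direction with the largest smaller ratio at a mean CPM of 5 or more, up to 5, 4 and 4 called in the 3 tests, up to 4 per gene list, and those nearest the threshold. Of the 85 symbols, 72 were matched to GENCODE on GRCh37, 8 of them through older symbols.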

Additional observations from a re-analysis of the deposited data

Results flagged for a closer look

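In 20 of the 85 genes the direct test at confluence, made between MMP2sh1 and MMP2sh2 with edgeR, called a difference between the hairpin lines. Among the lower-then-higher genes, the log2 difference (MMP2sh1 minus MMP2sh2) was 1.32 for F13A1, 1.03 for GPR132, 0.99 for RGCC, 0.96 for RP11-383H13.1, 0.84 for SLC7A11 and 0.77 for AC093627.9. It was 0.76 for MIAT, 0.75 for a further clone-named gene, 0.72 for CCL24, 0.67 for RNA18S5, 0.43 for SMOC1, 0.40 for ALDH1L2, 0.28 for CTC-459F4.1 and −0.85 for LINC00341. Among the higher-then-lower genes it was 0.68 for AC011738.4, 0.48 for STC1, −0.48 for HIST1H2BJ, −0.56 for HIST1H2AC, −0.66 for HIST1H2BK and −1.07 for TCHH. AC093627.9 and TCHH are named here because they were called. Of the 20 calls, 11 held under every alternative. TCHH lost its call under DESeq2, the replicate block and 3 left-out libraries, with a log2 difference of −0.60 and an edgeR adjusted p = 0.42 without replicate 2 of MMP2sh2. AC093627.9, the clone-named gene at 0.75, STC1 and CTC-459F4.1 lost theirs in the fit of all 27 libraries and when single libraries of either line were left out, with adjusted p values up to 0.136, 0.137, 0.115 and 0.096. SMOC1 and ALDH1L2 lost theirs without replicate 3 of MMP2sh1 or replicate 1 of MMP2sh2 (edgeR adjusted p up to 0.066 and 0.074), CCL24 without replicate 2 of MMP2sh1 (0.064) and LINC00341 without replicate 2 of MMP2sh2 (0.064). Each line is 1 stably selected population, so the hairpin and the line cannot be told apart.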

How the results depend on the processing

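The membership of the list depended on its limits. A control mean of 0.5 CPM gave 94 lower-then-higher and 106 higher-then-lower genes, one of 2 CPM 22 and 20, a ratio limit of 0.3 gave 105 and 119, and one of 0.5 gave 19 and 16. Leaving out 1 library gave 41 to 62 and 43 to 56 genes, the 62 without replicate 2 of subconfluent MMP2sh1, and 65 to 79 of the 85 were retained. CPM with TMM factors gave 86 genes, 77 of them shared, and means of log2 values 77, 70 of them shared.

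The called members, in the order lower-then-higher and higher-then-lower, numbered 8 and 9 in confluent MMP2sh1 (7 to 9 and 6 to 8 with 1 library left out), 12 and 13 in confluent MMP2sh2 (9 to 13 and 8 to 13, the 8 without replicate 1 of MMP2sh2), 29 and 25 in MMP2sh2 over the expansion (27 to 28 and 20 to 24), and 14 and 6 between the hairpin lines (10 to 13 and 4 to 8). With the replicate block these counts were 8 and 9, 12 and 12, 30 and 25, and 14 and 5, and the replicate numbers do not pair the samples. No called value changed sign under any alternative run. Of the called genes, 9 of 17, 15 of 25, 44 of 54 and 11 of 20 kept their call under every alternative, in the same order of tests. The power to make calls at the level of the 57 members with a mean under 5 CPM was not tested.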
